A study of Mus musculus with 6 samples.

Results

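The genes examined were those of voltage-gated sodium, calcium and chloride channels and of potassium channels, with their auxiliary subunits, in quadriceps muscle of mice with and without Pofut1 in muscle fibres. They were all genes whose symbol begins with Scn (followed by a number and a or b), Cacna, Cacnb, Cacng, Kcn or Clcn and that had a probe set assigned to that symbol alone. This gave 126 genes of 18194 measured, of which 123 encode proteins and 3 are noncoding transcripts whose names begin with Kcn. RefSeq lists 147 symbols of this form, and the other 21 were not analysed here. Pofut1 encodes an enzyme that adds fucose to EGF-like repeats. A skeletal α-actin cre transgene was carried by both groups, with floxed Pofut1 in the 3 knockout samples and wild-type Pofut1 in the 3 control samples. All were quadriceps of C57/Bl6 mice aged 2 months, with 1 array per sample. The transgene's promoter is active in skeletal muscle fibres, so other cells of the tissue were not its target, and the labels do not say whether replicates were separate animals.

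A muscle fibre is driven by an action potential that sodium channels carry along the surface and into the transverse tubules, where a calcium channel acts as the voltage sensor that triggers calcium release. Chloride and inward rectifier potassium channels hold the resting potential, and delayed rectifier and calcium-activated potassium channels repolarise the membrane. Auxiliary subunits set how many pore subunits reach the surface and how they gate.

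Of the 126 genes, 32 were above background in quadriceps, meaning that the mean log2 intensity over 6 arrays passed the 95th percentile of 39 genes restricted to other tissues (6.49, an intensity of 89.8). Over all genes the share above this level was 51.3%, against 25.4% of the channel genes. A probe set below the level gives only a bound, since a weak probe cannot be told from a rare transcript. Counts above the level by class or between neighbouring genes depend on the probes in the same way. Apart from this level, the choice of the brightest probe set and sums over markers, intensities of different probe sets were not set against each other. No gene passed limma after adjustment between knockout and control: 0 of 126 channel genes were called, and 0% of all genes. At an unadjusted p under 0.05 there was 1 channel gene, Kcns3, where 2.58% of all genes passed that level. The 3 knockout values lay on one side of the 3 control values for 7 channel genes (5.56%), whereas this held for 9.01% of all genes. They were above in 3 (3.33% of all genes) and below in 4 (5.68% of all genes). The adjusted p in limma was 0.971 to 0.999 for every channel gene, so no log2 difference given here for a channel gene passed the test. Log2 differences are knockout minus control, with the standard error of the fit.

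**Figure D1:**
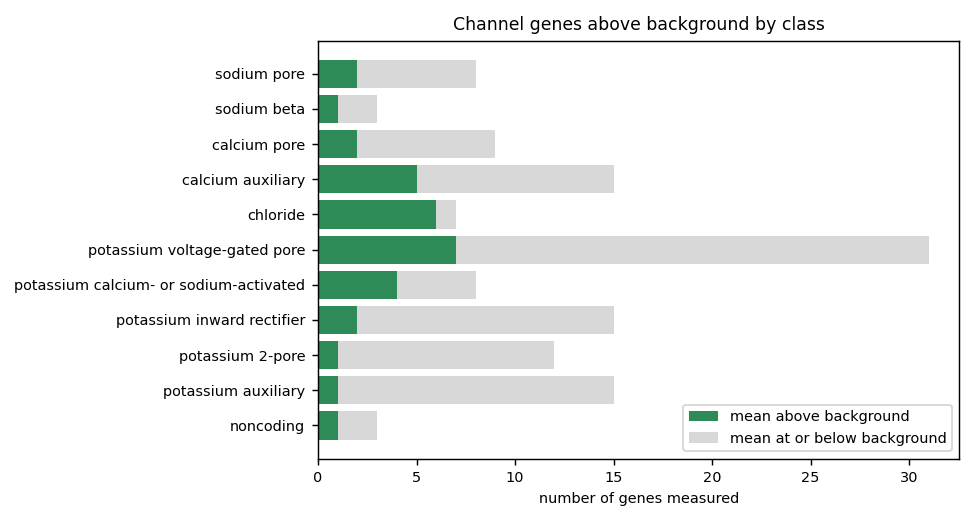
Bars give the number of channel genes measured in each class, with the part above background in green and the rest in grey. Of 7 chloride channel and exchanger genes 6 were above background, against 2 of 15 inward rectifier genes and 1 of 12 2-pore genes.

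One control array, labelled replicate 3, differed from the rest. Its log2 values over all genes correlated at 0.940 to 0.945 with the other arrays, which correlated with each other at 0.980 to 0.991. Its Gapdh 3′ over 5′ intensity ratio, which follows RNA integrity and cDNA length, was 10.5, against 3.70 in knockout replicate 2 and 1.73 to 1.97 in the remaining arrays. Pofut1 itself read 220.1, 231 and 194 in the knockout and 301, 379.8 and 90.6 in the control, so the lowest of the 6 values came from the array labelled control replicate 3, against its label. Its log2 difference was -0.023 ± 0.52 (adjusted p = 0.998 in limma, exact two-sided permutation p = 1), and -0.66 without that array (adjusted p = 0.802). Neither the part of RNA quality in the Pofut1 value of that array nor its label was tested. That array was the lowest of 6 for 28 of the 126 channel genes (22.2%) and the highest for 57 (45.2%). Over all genes it was the lowest for 32.1% and the highest for 35.3%. Above background the order was the other way. It was there the lowest for 13 of 32 channel genes (40.6%) and the highest for 7 (21.9%), beside 47.7% and 22.8% of all genes above background. Differences without it are therefore given beside those that it turns round or moves most.

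Sodium channel genes came first in the sequence of excitation. Of 8 pore genes measured 2 were above background, and of 3 beta subunit genes 1 was. Scn4a, known as the sodium pore of skeletal muscle fibres, was not among the 8 and was not analysed here. Values are given as intensities in the order of replicates 1, 2 and 3. Scn4b, whose beta subunit binds the pore and shapes its gating, read 1902, 1521 and 2358 in the knockout and 1963, 2169 and 1247 in the control. The groups overlapped, with the lowest value in the array labelled control replicate 3 and the highest in knockout replicate 3. Its log2 difference was 0.12 ± 0.25, and -0.12 without the former array. Scn7a encodes an atypical sodium channel that responds to extracellular sodium and is known from glia and Schwann cells as well as muscle. It read 671, 669.5 and 781 in the knockout and 999.8, 775 and 751 in the control. Control replicate 1 was highest, knockout replicate 3 lay among the controls, and the log2 difference was -0.24 ± 0.17. Markers of Schwann cells were measured for 6 of 10 listed genes, with 4 above background and S100b and Ncmap below it. Their summed intensity was 2356 to 2912 in the knockout and 1499.6 to 2852 in the control, where 2267 was the lowest when the array labelled control replicate 3 was left out. Their part in the Scn7a values was not tested. Scn3a, a channel of neurons, read 126, 105 and 84.1 in the knockout and 77.0, 76.0 and 90.2 in the control. Only 3 of these 6 values passed the background level, and its log2 difference was 0.36 ± 0.22. In bulk tissue, fewer cells of a type and less RNA per cell cannot be told apart. Scn2b and Scn3b, the other beta subunits measured, stayed below background by their means, at 69.3 to 111 and 46.2 to 97.4 over the 6 arrays.

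The calcium channel of the transverse tubule, the dihydropyridine receptor, was represented by its pore and by 3 of its auxiliary subunits. Cacna1s, the pore and voltage sensor for contraction, read 991, 820.4 and 1188 in the knockout and 904, 1380.0 and 403 in the control. The array labelled control replicate 3 was well below all others, and control replicate 2 was the highest. The log2 difference was 0.31 ± 0.43, and it turned to -0.18 without that array. To show the start regions of the main calcium and chloride channel genes of the fibre, the RefSeq window from 250 bases before to 50 after the start is given for Cacna1s and Clcn1 (build GRCm38.p6). Capitals mark CAGCTG, an E-box form that myogenic factors are known to bind, and CTANNNNTAG, where N is any base. The latter pattern takes in sites known for Mef2 factors and other sequences as well, so its counts are not counts of Mef2 sites. Both patterns read the same on either strand, and the matches do not overlap each other in these windows. The Cacna1s window is chr1:136052561-136052860 on the plus strand, and it held 1 CAGCTG and 0 CTANNNNTAG.
Cacna1s: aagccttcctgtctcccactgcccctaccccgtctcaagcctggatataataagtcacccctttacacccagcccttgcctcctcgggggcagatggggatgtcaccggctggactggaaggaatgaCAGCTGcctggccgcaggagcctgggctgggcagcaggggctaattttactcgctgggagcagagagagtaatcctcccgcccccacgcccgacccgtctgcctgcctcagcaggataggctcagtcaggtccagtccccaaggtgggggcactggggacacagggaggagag
The Clcn1 window is chr6:42286435-42286734 on the plus strand, with 0 CAGCTG and 1 CTANNNNTAG.
Clcn1: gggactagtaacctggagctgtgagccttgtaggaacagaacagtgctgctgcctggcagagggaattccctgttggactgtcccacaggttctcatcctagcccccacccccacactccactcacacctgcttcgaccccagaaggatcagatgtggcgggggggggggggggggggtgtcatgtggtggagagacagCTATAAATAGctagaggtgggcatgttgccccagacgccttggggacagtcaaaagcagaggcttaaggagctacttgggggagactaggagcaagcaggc
Windows were found for 25 of the 32 genes above background, and genes with several starts had several windows. CAGCTG was in 8 of their 32 windows (25.0%), in 30 of 105 windows of channel genes below background (28.6%) and in 16.3% of 32851 windows of all genes. CTANNNNTAG was in 1 of 32 (3.13%), 2 of 105 (1.90%) and 3.69% of these sets. A match describes letters and is not a site shown to be bound.

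Cacna2d1, the extracellular α2δ subunit of that receptor, read 4573, 5060.3 and 4734 in the knockout and 4448, 4459.5 and 3814 in the control. All 3 knockout values were above all 3 control values, by a log2 difference of 0.18 ± 0.11, or 0.10 without the array labelled control replicate 3, which was the lowest. Another of its probe sets had a difference of -0.40. Cacng1, its transmembrane γ subunit, read 1377, 1042 and 1381 in the knockout and 1237, 1547 and 1639.9 in the control. These groups overlapped, and the log2 difference was -0.22 ± 0.18, or -0.14 without that array. Cacnb1, the cytoplasmic β subunit that brings the pore to the tubule, read 334, 417 and 353 in the knockout and 516, 497 and 314 in the control. Control replicates 1 and 2 lay above the 3 knockout values, and the array labelled control replicate 3 lay below them. The log2 difference was -0.24 ± 0.24, and -0.47 without that array (unadjusted p = 0.0168, adjusted p = 0.802 in limma). Cacng6, another γ subunit known from muscle, read 858, 554 and 771 in the knockout and 534, 744 and 617 in the control, with overlapping groups and a log2 difference of 0.19 ± 0.22.

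Other calcium channel genes were near or below background. Cacna2d4, an α2δ subunit known from the retina, read 125, 105 and 167 in the knockout and 206, 93.5 and 208 in the control, and Cacna1a, the pore of P/Q-type channels of nerve endings, read 87.0, 136 and 111 in the knockout and 94.2, 112 and 161 in the control. The groups overlapped for both genes. The log2 differences were -0.29 ± 0.38 and -0.12 ± 0.29, and -0.095 and 0.092 without the array labelled control replicate 3. The other 7 pore genes and the other 10 auxiliary genes had means below background. Cacna1d, an L-type pore of neurons and endocrine cells, was one of these. It read 58.3, 52.7 and 56.2 in the knockout and 72.6, 59.1 and 127 in the control. The control values all lay above the knockout values, and 1 of the 6 arrays passed the background level. Its log2 difference was -0.55 ± 0.27, or -0.23 without the array labelled control replicate 3, which was the highest. Its other probe set, also below background, had a difference of the opposite sign, 0.19, and 0.22 without that array.

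**Figure D2:**
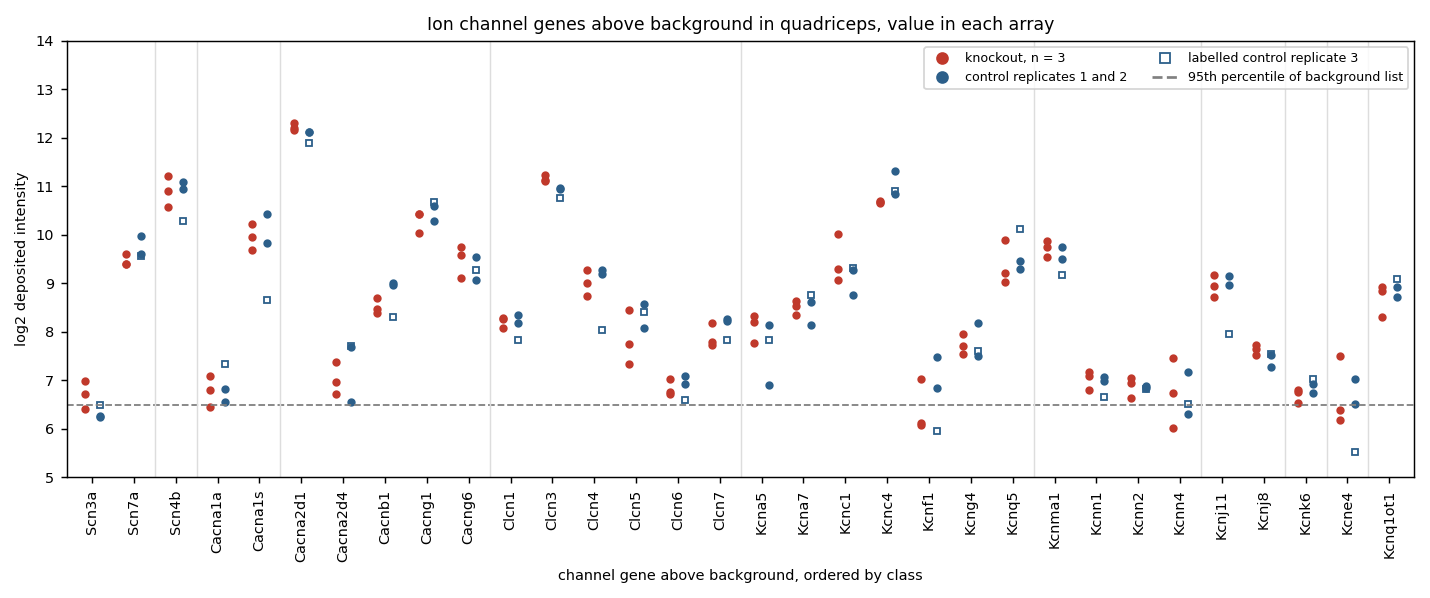
Each point is the log2 intensity of 1 array for a channel gene above background, with knockout arrays in red, control arrays in blue and the array labelled control replicate 3 as an open square; the dashed line is the background level of 6.49. That square is the lowest point for Cacna1s, Clcn4 and Kcnj11, and the knockout and control points separate for Cacna2d1, Clcn3 and Kcnc4.

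Chloride channel genes were the class with the largest share above background, 6 of 7. Clcn1, whose channel carries most of the resting chloride conductance of skeletal muscle and which is mutated in myotonia congenita, read 312, 307 and 269 in the knockout and 291, 324 and 228 in the control. The 5 arrays other than that labelled control replicate 3 spanned 269 to 324, and that array was the lowest. The log2 difference was 0.085 ± 0.20, and -0.058 without it. The other 5 genes encode chloride-proton exchangers of endosomes and lysosomes. Clcn3 read 2193, 2391 and 2237 in the knockout and 1977, 1983 and 1721 in the control. All knockout values lay above all control values, with a log2 difference of 0.27 ± 0.12 (unadjusted p = 0.0540 in limma, exact two-sided permutation p = 0.1, the smallest that 3 against 3 allows). Without the array labelled control replicate 3 the difference was 0.20. Clcn4 read 514, 618 and 424 in the knockout and 616, 581 and 263 in the control, and its log2 difference of 0.17 ± 0.35 turned to -0.22 without that array, which was far below the others. Clcn7, which pairs with a beta subunit in lysosomes, read 221, 289 and 212 in the knockout and 305, 300.0 and 228 in the control, and its log2 difference was -0.21 ± 0.22, or -0.35 without that array. Clcn5 had the lowest log2 difference of the genes above background, -0.51 ± 0.31, at 349, 161 and 215 in the knockout and 379, 271 and 337 in the control, and the groups overlapped. Its other probe set above background had a difference of the opposite sign, 0.58, and 0.084 without the array labelled control replicate 3. Clcn6 had -0.029 ± 0.23, and -0.17 without that array. Clcn2, the remaining plasma membrane channel, was below background in all arrays, at 39.9 to 54.9.

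Voltage-gated potassium pores were the largest class, and 7 of 31 were above background. Kcnc4, of the fast-activating Kv3 family that shortens action potentials, read 1614, 1658 and 1637 in the knockout and 1837, 2528 and 1905 in the control. The 3 knockout values lay close together and below all control values, and control replicate 2 was the highest. Its log2 difference was -0.34 ± 0.15 (unadjusted p = 0.0592). It was -0.40 when the array labelled control replicate 3 was left out (unadjusted p = 0.0361, adjusted p = 0.802 in limma). Kcnc1, another Kv3 pore, read 533, 1027 and 626 in the knockout and 433, 615 and 633 in the control, with the highest value in knockout replicate 2 and overlapping groups. The log2 difference was 0.34 ± 0.28, of the opposite sign to that of Kcnc4, and a difference between these genes was not tested.

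Among the other genes of this class was Kcna5, a pore of the Shaker family known from heart and muscle. It read 318, 219 and 293 in the knockout and 119, 283 and 228 in the control. Control replicate 1 was far below the other 5 arrays. The log2 difference of 0.47 ± 0.35 was the highest of the genes above background, and it was 0.11 without control replicate 1. Kcna7, a Shaker pore found mainly in skeletal and heart muscle, read 324, 395 and 369 in the knockout and 282, 391 and 432 in the control, and its log2 difference was -0.0046 ± 0.22, or 0.12 without the array labelled control replicate 3. Kcnq5, of the slow M-type family, read 517, 952 and 596 in the knockout and 698, 624 and 1112 in the control. Its highest values were in the 2 arrays with high Gapdh ratios, knockout replicate 2 and that labelled control replicate 3, and the part of RNA quality in these values was not tested. Its log2 difference was -0.24 ± 0.31, and 0.010 without the latter array. Its other probe sets were below background. They had differences of the opposite sign, 0.22 and 0.048, and of 0.17 and 0.018 without that array. Kcng4 and Kcnf1 encode silent subunits that act only together with other pores. Their log2 differences were -0.020 ± 0.25 and -0.35 ± 0.44, and -0.098 and -0.75 without the array labelled control replicate 3. Kcnf1 passed the background level in 3 of 6 arrays.

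The class of calcium- or sodium-activated potassium channels had 4 of 8 genes above background. Kcnma1, the large-conductance BK channel of muscle fibres and vessel walls, read 933, 743 and 853 in the knockout and 854, 719 and 572 in the control. The array labelled control replicate 3 was the lowest, the groups overlapped, and the log2 difference was 0.25 ± 0.19, or 0.099 without that array. Kcnn1 and Kcnn2 encode small-conductance SK channels. Kcnn2 read 99.4, 132 and 122 in the knockout and 118, 114 and 113 in the control, and its log2 difference was 0.024 ± 0.21, or 0.011 without the array labelled control replicate 3. Kcnn1 read 112, 135 and 145 in the knockout and 134, 126 and 101 in the control, at 0.12 ± 0.23, and -0.0018 without it. Kcnn4, an intermediate-conductance channel known from blood and endothelial cells, read 106, 176 and 64.5 in the knockout and 143, 78.8 and 91.1 in the control and passed the background level in 4 of 6 arrays, with a log2 difference of 0.078 ± 0.41, or 0.0040 without that array. Kcnn3, the SK channel known to appear in denervated muscle, was below background in all arrays, at 54.2 to 61.6.

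Inward rectifiers above background were the pores of ATP-sensitive channels, which open as cellular ATP falls. Kcnj11, the pore of muscle fibres, read 419.7, 492 and 578 in the knockout and 501, 565 and 249 in the control. The array labelled control replicate 3 was lowest, the other controls lay within the knockout range, and the log2 difference of 0.25 ± 0.33 turned to -0.11 without it. Kcnj8, the pore of vessel walls, read 213, 201 and 183 in the knockout and 155, 183 and 187 in the control, with control replicate 1 lowest and a log2 difference of 0.19 ± 0.20. Smooth muscle markers were measured for 8 of 8 listed genes, 7 above background and Cnn1 below it. Their summed intensity was 6743 to 7722 in the knockout and 5883 to 7549 in the control, so the groups overlapped. Des, a gene of this list, is also a skeletal fibre gene. Leaving it out, a choice made after the values were seen, gave sums of 3366 to 3608 in the knockout and 2946 to 3100.1 in the control, which did not overlap. The part of these markers in the Kcnj8 and Kcnma1 values was not tested. The sulfonylurea receptors that assemble with these pores are Abcc8, at 144, 127 and 117 in the knockout and 149, 133 and 80.4 in the control, and Abcc9, at 2098, 1849.6 and 1862 in the knockout and 1565, 1956 and 2026 in the control. Both overlapped between groups, with log2 differences of 0.14 ± 0.29 and 0.073 ± 0.14. Without the array labelled control replicate 3 they were -0.13 and 0.14, so that of Abcc8 turned round. Kcnj2, the classical inward rectifier of muscle fibres, was below background in all arrays, at 40.4 to 50.8, and Kcnj12, its close relative, read 66.6 to 99.6 with 2 arrays above the level.

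Of 12 genes of 2-pore potassium channels, which carry leak current, only Kcnk6 was above background, at 111, 109 and 92.1 in the knockout and 121, 106 and 130.1 in the control and a log2 difference of -0.20 ± 0.20. Of 15 auxiliary genes only Kcne4, a subunit that reduces Kv currents, was above it. Kcne4 read 179.7, 83.7 and 72.2 in the knockout and 91.1, 129 and 45.9 in the control, and 3 arrays passed the background level. Its log2 difference of 0.33 ± 0.48 turned to -0.080 without the array labelled control replicate 3. The noncoding transcript Kcnq1ot1, antisense to the Kcnq1 gene, read 484, 455 and 316 in the knockout and 420.0, 486 and 542 in the control, and its log2 difference was -0.22 ± 0.22, or -0.14 without that array. Its other probe sets above background had differences of the opposite sign, 0.22 and 0.47, and of -0.30 and 0.13 without it. Kcnq1 itself was below background, at 48.3 to 54.4.

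**Figure D3:**
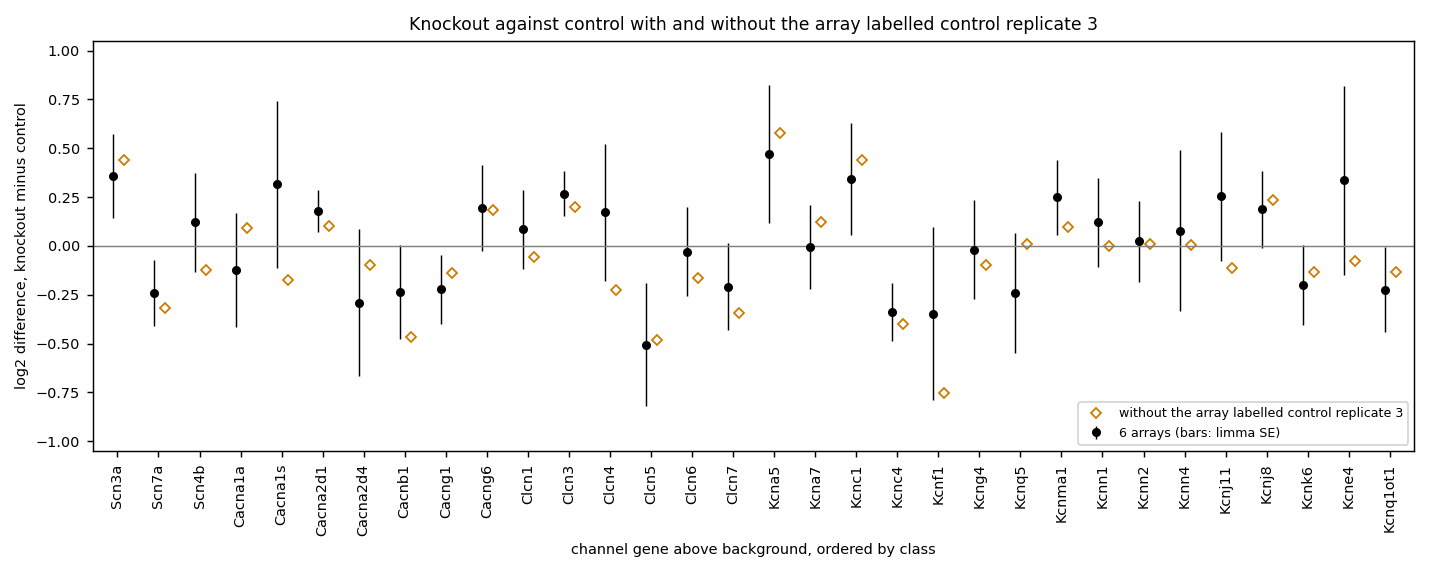
Black points give the log2 difference, knockout minus control, over 6 arrays with limma standard errors as bars, and open diamonds give it without the array labelled control replicate 3. Of 32 genes, 17 lie above 0 and 15 below, and the diamond lies on the other side of 0 for 10, among them Cacna1s, Clcn4 and Kcnj11.

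The other 94 channel genes had means below background, and 81 channel genes passed the level in no array. The threshold fell between Kcne4, at a mean log2 intensity of 6.52, and Kcnab1, at 6.47. A few of these genes were high in a single array. Cacnb4, a β subunit known from the brain, read 50.4, 50.1 and 49.4 in the knockout and 48.0, 54.7 and 448 in the control, so the array labelled control replicate 3 alone was high, and its log2 difference of -1.08 ± 0.80 was the lowest of all channel genes but -0.036 without it. Kcnk1, a 2-pore channel, read 415, 53.7 and 57.6 in the knockout and 70.5, 59.0 and 41.6 in the control. Only knockout replicate 1 was high, and the log2 difference of 0.96 ± 0.76 was the highest of all channel genes but -0.0029 without that array. Kcns3, a silent Kv subunit and the gene with an unadjusted p under 0.05, read 53.6, 49.5 and 51.3 in the knockout and 48.1, 46.7 and 42.9 in the control. Its knockout values lay above its control values, by 0.16 ± 0.065 (unadjusted p = 0.0399, adjusted p = 0.971 in limma), all below background. Kcne3, an auxiliary subunit known to assemble with the Kcnc4 pore in skeletal muscle, read 47.6, 47.1 and 48.3 in the knockout and 52.0, 55.1 and 50.1 in the control, with its control values above its knockout values and a log2 difference of -0.14 ± 0.061. Kcnmb4os2, a noncoding transcript, was the last of the 7 genes without overlap, at 40.8 to 42.8.

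Over all 126 genes the median log2 difference was -0.016, beside -0.0086 over all genes measured. Without the array labelled control replicate 3 the medians were 0.011 and -0.0042. Positive differences were found for 52 of 126 channel genes (41.3%), against 46.3% of all genes. Without that array there were 71 of 126 (56.3%), against 48% of all genes. In that fit 5 channel genes had an unadjusted p under 0.05 (3.97%), where 5.99% of all genes did. They were Cacnb1, Kcnc4 and Kcne3 with negative values and Kcna4 and Kcnd2, both below background, with positive ones.

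Channel genes often lie side by side on a chromosome, and neighbours were not all above background. In RefSeq gene order 18 pairs of measured channel genes were adjacent. In 6 pairs 1 gene was above background, in 12 neither was, and in 0 both were. Scn4b was above background and its neighbour Scn2b on chromosome 9 was not. Cacng1 was above it, and Cacng4 and Cacng5, which follow on chromosome 11, were not. Kcna5 was above it, and Kcna1 and Kcna6 on chromosome 6 were not. Scn7a was above it, and Scn9a on chromosome 2 was not.

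Probe sets of the same gene did not always give the same difference. For 12 of the channel genes 2 or more probe sets were above background, and their log2 differences had 1 sign for 5 of these genes over 6 arrays and for 7 without the array labelled control replicate 3. Cacna1a, Cacng6, Clcn6, Clcn7, Kcnf1, Kcnj11, Kcnn4, Kcnq5 and Scn3a were above background by their brightest probe set only. Their other probe sets were all below it. For Clcn3 all 3 probe sets had positive differences, from 0.27 to 0.81. Against the mean of the other arrays, however, the array labelled control replicate 3 differed by -0.32 to -2.34 on the log2 scale, depending on the probe set. Without it the 3 differences of Clcn3 were 0.043 to 0.23. The 2 probe sets of Kcnc4 gave -0.34 and -0.38, and -0.40 and -0.56 without that array. Cacna2d1 ran both ways. Its brightest probe set gave 0.18, whereas the others gave 0.36 and -0.40, and without that array the 3 gave 0.10, -0.13 and -0.56. Cacnb1 also ran both ways, at -0.24 and 0.49, or -0.47 and 0.046 without it. Scn7a gave -0.24 and 0.36 over 6 arrays, and -0.32 and -0.33 without that array. The 3 sets of Kcnma1 gave 0.25, -0.14 and 0.31, or 0.099, -0.19 and -0.14 without it. The 2 sets of Kcnn1 gave 0.12 and -0.45, or -0.0018 and -0.21. Clcn5 and Kcnq1ot1 were the remaining genes whose sets differed in sign over 6 arrays. Where in each transcript these probe sets lie was not analysed here, and the part of RNA quality in these differences was not tested.

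**Figure D4:**
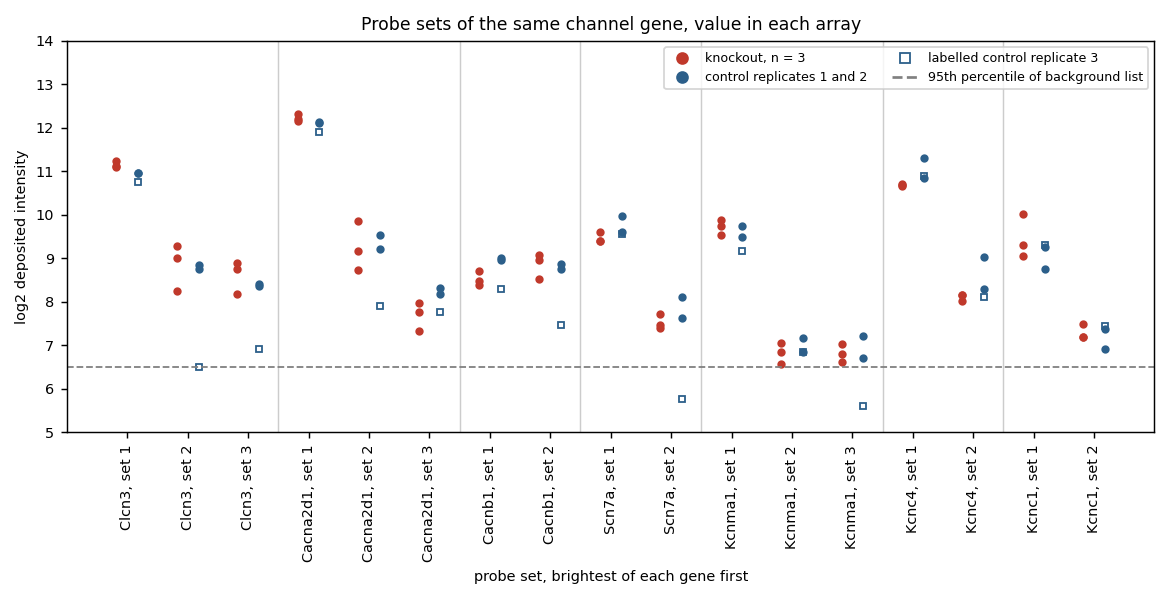
Points are log2 intensities of each array for the probe sets above background of 7 channel genes, brightest first within each gene, with symbols as in the plot of intensities by gene. The open square of the array labelled control replicate 3 falls far below the other arrays for the second sets of Clcn3, Cacna2d1, Cacnb1 and Scn7a, and stays among or near them for both sets of Kcnc4 and Kcnc1.

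Genes that work with these channels gave 0 calls as well. Of 10 measured genes of membrane pumps and exchangers 5 had positive and 5 negative log2 differences, with a median of 0.0049, or -0.015 without the array labelled control replicate 3. Fxyd5, which modulates the sodium-potassium pump, read 377, 204 and 284 in the knockout and 515, 450.4 and 454 in the control. Its knockout values all lay below its control values, with a log2 difference of -0.76 ± 0.25 (unadjusted p = 0.0193). Atp2b4, a plasma membrane calcium pump with a mean below background, had 0.86 ± 0.35, or 0.60 without the array labelled control replicate 3, which was the lowest. Of 22 genes of the triad and of calcium release 11 were positive and 11 negative, with a median of -0.032, or -0.0096 without that array. Jph1, which joins the tubule to the sarcoplasmic reticulum, read 1494, 1637 and 1551 in the knockout and 1239, 1456 and 1300.2 in the control, without overlap and at 0.23 ± 0.12. Ryr3, a calcium release channel below background, had -0.69 ± 0.32, or -0.32 without the array labelled control replicate 3, which was the highest. Of 15 channel scaffolds and regulators 8 were positive, with a median of 0.077, or 0.030 without that array. Prkaa2, a catalytic subunit of AMP-activated kinase, had 0.26 ± 0.14, or 0.13 without it. Nedd4l, the ubiquitin ligase known to remove sodium channels from the membrane, read 437, 535 and 365 in the knockout and 538, 536 and 2325 in the control. The array labelled control replicate 3 alone was far above the others, and the log2 difference was -0.99 ± 0.56, or -0.29 without it. Of 15 other ion channel genes of muscle 8 were positive, with a median of 0.023 that turned to -0.13 without that array. Piezo1, a stretch-activated channel, had -0.55 ± 0.25, and Trpv4, below background, -0.16 ± 0.069, or -0.10 without it. For all of these named genes the adjusted p in limma was 0.971.

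The labelled tissue matched its defining markers, since all 14 skeletal fibre genes listed were above background. Their summed intensity was 112175 to 119829 in the knockout and 104883 to 112681 in the control, with 12 of 14 log2 differences positive and a median of 0.11. All 8 endothelial markers were above background, with sums of 2418 to 2509 in the knockout and 2096 to 2324 in the control. Adipocyte markers (4 of 6 measured above background) summed to 5147 to 9359 in the knockout and 5562 to 6771 in the control. Macrophage and lymphocyte markers (6 of 10) summed to 3444 to 5715 and 3897 to 6287. The part of these cells in the channel values was not tested.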

How the data were processed

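Quadriceps RNA of 6 mouse samples was measured on 1 Affymetrix-type probe set array each. RNA was isolated with Trizol and a silica membrane and amplified to biotin-labelled cDNA, per the labels' protocols. The authors deposited probe set intensities on a linear scale, and GCOS and RMA are named in the submitters' processing notes, with no versions. That the scale is linear follows from the values, 37.2 to 16069, with array medians of 56.6 to 58.6. The final scaling step is unknown, and such summaries compress differences of dim genes.

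Of 45101 probe sets, 34958 had 1 gene symbol in the platform annotation, 932 several and 9211 were not listed. Entrez identifiers of 34754 were found in RefSeq (GRCm38.p6), and 0 symbols changed. For each of 18194 genes the brightest single-gene probe set by its mean over 6 arrays was used, and 77 of the 126 channel genes had more than 1.

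Log2 intensities, with no pseudocount, were tested between genotypes with limma (version 3.58.1, under R 4.3.3), using lmFit and eBayes with a mean-variance trend and no covariate. Tests were two-sided and adjusted by Benjamini-Hochberg over all genes at 0.05, and the fit was tested on simulated data. There 15% of log2 differences of 1 planted in genes above background passed adjustment, and 54% of those of 2. The p-values reflect only how these samples varied, which may be technical, and the number of arrays limits the precision. Of the 39 background genes 2 lay above the level, Krt10 and Cyp2e1, the latter also known from fat. Per-sample values were given for textbook fibre channels and up to 3 genes per class above background, for genes without overlap, and for some genes chosen after their values were seen. From each list of partner genes the 2 with the smallest p were named. The channel genes and all lists were chosen with earlier results of these data known. Alternatives were a replicate block, other normalizations, probe set choice, variance model, array weights, dim genes, sex pattern, the background level and leaving out arrays. Sex pattern was taken from Xist values. It was female in replicate 2 of each group and male in the other arrays. Promoter windows came from RefSeq.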

Additional observations from a re-analysis of the deposited data

How the results depend on the processing

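With 3 arrays a group, 0 genes passed adjustment in the fit of all arrays and in every alternative run, so these settings bear only on sizes and signs. The count of channel genes with an unadjusted p under 0.05, 1 over all arrays, was 0 with the replicate number as a block, with array medians centred, when dim genes (at or below the 90th percentile of background) were left out and with sex pattern as a covariate. It was 2 (1.59%) with quantile normalization and with the mean of probe sets, where 2.89% and 2.52% of all genes passed. It was 12 (9.52%) with array weights, against 10.2% of all genes, and 8 (6.35%) without both arrays of high Gapdh ratio, against 7.49%. It was 0 to 5 when single arrays were left out, where 5 was without the array labelled control replicate 3. Same-numbered arrays deviated from their group means with correlations of 0.19, -0.15 and -0.11. They also matched in sex pattern. Neither shows whether the samples were paired, and the main fit took no pairs. In this balanced design a block cannot change a log2 difference, only its error. The number of channel genes above background, 32, was 51 at the 90th percentile of background and 8 at its maximum. The median log2 difference of -0.016 was 0.024 without those dim genes, where fewer genes were tested.

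Signs turned for genes with small and with large differences, Kcnk1 with the highest of all channel genes among them, and the cause was not tested. With array weights the values were 0.0022 for Cacna1a, -0.035 for Clcn1, -0.28 for Clcn4, 0.13 for Kcna7, -0.085 for Kcnj11, -0.037 for Kcnn1, -0.057 for Kcnn2, -0.29 for Kcnn4 and -0.0057 for Scn4b. Without both arrays of high Gapdh ratio they were -0.041 for Cacna1s, 0.058 for Cacna2d4, -0.085 for Clcn1, -0.36 for Clcn4, 0.058 for Kcna7, 0.00079 for Kcng4, -0.11 for Kcnj11, -0.030 for Kcnn1, -0.074 for Kcnn2 and -0.36 for Kcnn4. With the mean of probe sets they were -0.032 for Cacna2d1, 0.0080 for Cacnb1, -0.17 for Kcnn1, 0.055 for Kcnq1ot1, 0.0097 for Kcnq5 and 0.0089 for Scn7a. Leaving out single arrays gave ranges across 0 of -0.29 to 0.092 for Cacna1a, -0.18 to 0.71 for Cacna1s, -0.058 to 0.20 for Clcn1, -0.22 to 0.39 for Clcn4, -0.17 to 0.081 for Clcn6, -0.18 to 0.12 for Kcna7, -0.080 to 0.67 for Kcne4 and -0.75 to 0.013 for Kcnf1. They were -0.15 to 0.19 for Kcng4, -0.11 to 0.48 for Kcnj11, -0.0018 to 0.23 for Kcnn1, -0.062 to 0.14 for Kcnn2, -0.29 to 0.44 for Kcnn4, -0.50 to 0.010 for Kcnq5, -0.12 to 0.28 for Scn4b, -0.0029 to 1.47 for Kcnk1 and -0.66 to 0.38 for Pofut1.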
